A study of Mus musculus with 61 samples.

Results

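Tcfcp2l1 was described through its chromatin accessibility and the Sox2 positions around it at day 3 of reprogramming. Its members were all rows of the deposited Sono-seq table that carry this gene symbol, namely 7 of 14265 enhancers and 1 of 5513 promoter start sites, and it is 1 of 5154 gene symbols in that table. Per the file headers, the regions are those of embryonic stem cells, from a published set. Whether they act as enhancers in the cells assayed here was not analysed. The gene was chosen by its enhancer ratios of CAF-1 over Renilla, which were known to be below 0, so the Sono-seq values below are a description and no test was made on them. Tcfcp2l1, now named Tfcp2l1 in RefSeq, encodes a DNA-binding transcription factor of the CP2 family, which is related to the grainyhead factors. In mouse embryonic stem (ES) cells it is a target of LIF and Stat3 signalling and helps to hold cells in the naive pluripotent state together with factors such as Klf4 and Nanog. Reprogramming to pluripotency ends with this network switched on.

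The cells were mouse embryonic fibroblasts from E13.5 embryos of strain Black6-129X1/SvJ with the genotype Col1a1::tetOP-OKSM ; R26-M2rtTA. In these cells doxycycline switches on the 4 reprogramming factors Oct4, Klf4, Sox2 and Myc from a cassette named OKSM, and all groups received it at 2 µg/ml in serum/LIF medium with ascorbate. The groups differed in their hairpin, which targeted either CAF-1, the chaperone complex that places histones on newly replicated DNA, or Renilla luciferase as the control. In Sono-seq, DNA freed by sonication of cross-linked chromatin is sequenced and accessible regions are enriched. It had 3 libraries titled CAF-1 and 3 titled Renilla, all of day 3. The file header calls the CAF-1 condition CAF mutant, and it is called CAF-1 knockdown here. The labels do not say which CAF-1 hairpins were used. Sox2 ChIP-seq of day 3 compared the Renilla hairpin with Chaf1a.166 and with Chaf1a.2122, a pair of hairpins against the large CAF-1 subunit, from a single immunoprecipitate and its input per hairpin. The deposited Sono-seq table gives 1 value per region and condition in a unit the sources used here do not give, and read depth is unknown for both assays. The spread between libraries therefore could not be set beside any value, and whether a difference exceeds it was not tested. Whether the cells expressed Tcfcp2l1, and how far Chaf1a was reduced, was not analysed here.

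The promoter is shown because it is among the regions with less signal in the knockdown, and because it shows which binding motifs of the reprogramming factors lie next to the start site. The RefSeq table (GRCm38.p6, 1 of 1 genes matched by transcript) places the 250 bases before the start at chr1:118627695-118627944 on the plus strand. In the line below, capitals mark the matches to the motifs searched.

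Tcfcp2l1 promoter: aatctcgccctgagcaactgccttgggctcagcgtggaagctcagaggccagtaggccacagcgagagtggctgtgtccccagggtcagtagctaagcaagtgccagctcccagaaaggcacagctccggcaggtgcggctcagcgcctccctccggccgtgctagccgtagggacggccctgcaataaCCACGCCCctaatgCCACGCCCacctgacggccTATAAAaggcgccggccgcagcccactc

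Of 6 motifs searched on both strands, 2 had a match in this window. They were chosen after the sequence was seen. The TATA box letters TATAAA begin 28 bases before the start, and 12.4% of 32851 RefSeq promoter windows of the same length hold them. The letters CCNCNCCC, a pattern bound by Klf factors, occur at 2 places that begin 61 and 47 bases before the start, do not overlap and read the same (CCACGCCC). At least 1 match to CCNCNCCC is found in 45.9% of all windows, and 2 or more are found in 27.3%. The Sox core ACAAT (27.7% of all windows), the octamer ATGCAAAT (1.60%), the E-box CACGTG (6.02%) and the Stat pattern TTCNNNGAA (7.02%) have no match, which says only that these letters are not in this window. The window is 65.2% G or C, against a median of 52.4%, and holds 16 CG dinucleotides, against a median of 6.

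Every listed region of Tcfcp2l1 had a lower Sono-seq value in the CAF-1 knockdown than in Renilla. On the log2 scale, the ratio of CAF-1 to Renilla averaged -0.19 ± 0.20 (SD over enhancers, which are not replicates) over the 7 enhancers and was -0.36 at the promoter. Over the whole table, 44.7% of enhancers and 51.8% of promoters were lower with CAF-1 knockdown, so a lower value at a single region is common. The median log2 ratio was 0.028 over all enhancers and -0.0093 over all promoters.

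**Figure D1:**
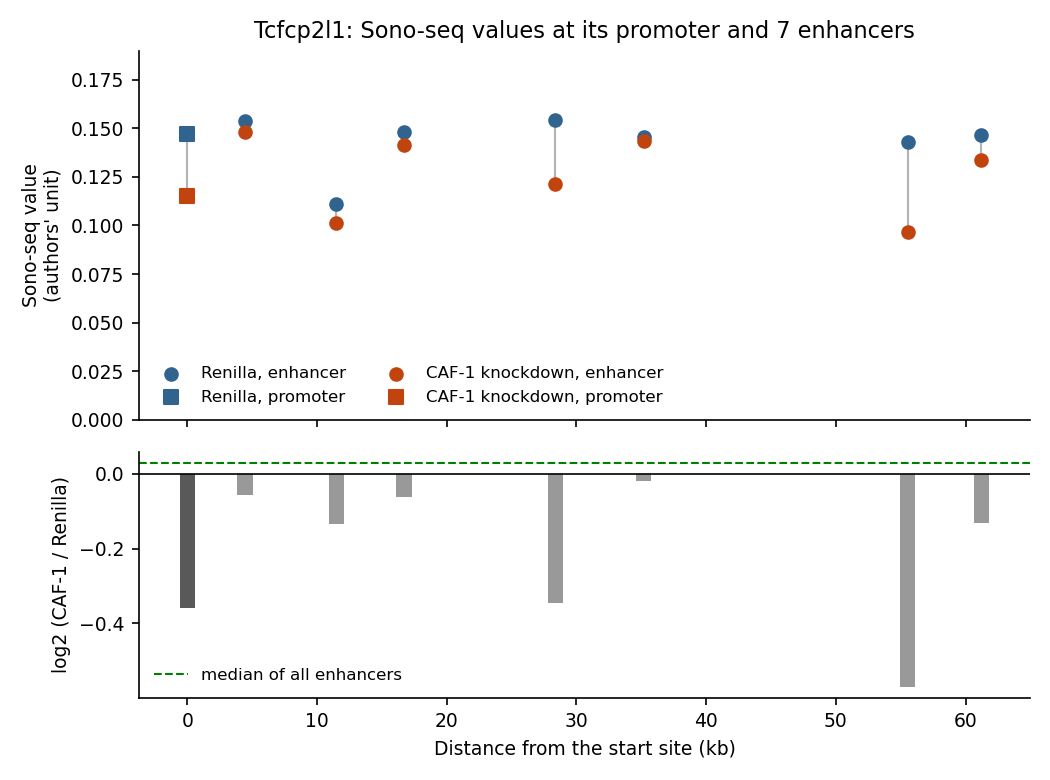
Sono-seq values of the promoter (squares) and the 7 enhancers (circles) of Tcfcp2l1 in the authors' unit, against distance from the start site in kb, with Renilla in blue and CAF-1 knockdown in red (top), and the log2 ratio of each region (bottom, the promoter in dark grey). The CAF-1 point lies below the Renilla point at all 8 regions, with the widest gaps at the promoter and at the enhancers 28379 and 55529 bp from the start.

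At the promoter, whose start site the table places on chromosome 1 at 120524521 (mm9, transcript NM_023755), the Sono-seq value was 0.115 with CAF-1 knockdown and 0.147 with Renilla. The Renilla value lay near the middle of all promoters, at percentile 56.7, and the CAF-1 value at percentile 17.5. The promoter thus had 21.9% less signal in the knockdown. Its log2 ratio of -0.36 lay at percentile 6.77 of all promoters and at percentile 8.17 of the 551 promoters in the same decile of mean level. A drop of at least 1.2-fold, a limit set after the values were seen, was found at 13.3% of promoters.

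The enhancers all lie on the downstream side of the start site, from 4429 to 61229 bp away, and the table assigns none of them to another gene. Neighbouring enhancers are 5200 to 20350 bp apart. Exons and introns of mm9 were not used here, so their place in the transcript is not given.

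The largest difference was at the sixth enhancer, at position 120580050 and 55529 bp from the start. Its value was 0.0964 with CAF-1 knockdown and 0.143 with Renilla, a log2 ratio of -0.57, or 32.6% less signal. That ratio lay at percentile 0.631 of all enhancers, and at percentile 0.561 of the 1427 enhancers in the same decile of mean level. Its Renilla value was at percentile 59.1 and its CAF-1 value at percentile 6.32, so an enhancer of ordinary level in control cells was among the low ones in the knockdown.

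The fourth enhancer, at 120552900 and 28379 bp from the start, had 0.121 with CAF-1 knockdown and 0.154 with Renilla. Its log2 ratio of -0.35 lay at percentile 5.29 of all enhancers. These 2 enhancers, the fourth and the sixth, were the ones lower by at least 1.2-fold, against 10.6% of all enhancers, and they made up 68.3% of the summed difference over the 7.

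The other 5 enhancers differed little between the conditions, with a mean log2 ratio of -0.081 ± 0.051 (SD over enhancers). The second, at 120536000, had 0.101 with CAF-1 knockdown and 0.111 with Renilla (log2 ratio -0.13). It was the lowest of the 7 in Renilla, at percentile 15.9 of all enhancers. The last, at 120585750, had 0.134 and 0.146 (-0.13).

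The enhancer nearest to the start, at 120528950, had 0.148 with CAF-1 knockdown and 0.154 with Renilla (log2 ratio -0.056). The third, at 120541200, had 0.142 and 0.148 (-0.064). The fifth, at 120559700, had 0.144 and 0.146 (-0.019), which is the smallest difference among the 8 regions. The ratios of these 3 lay between percentiles 34.1 and 41.5 of all enhancers. Large and small differences alternated along the locus: the fifth enhancer, with nearly equal values, lies between those with the largest differences.

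**Figure D2:**
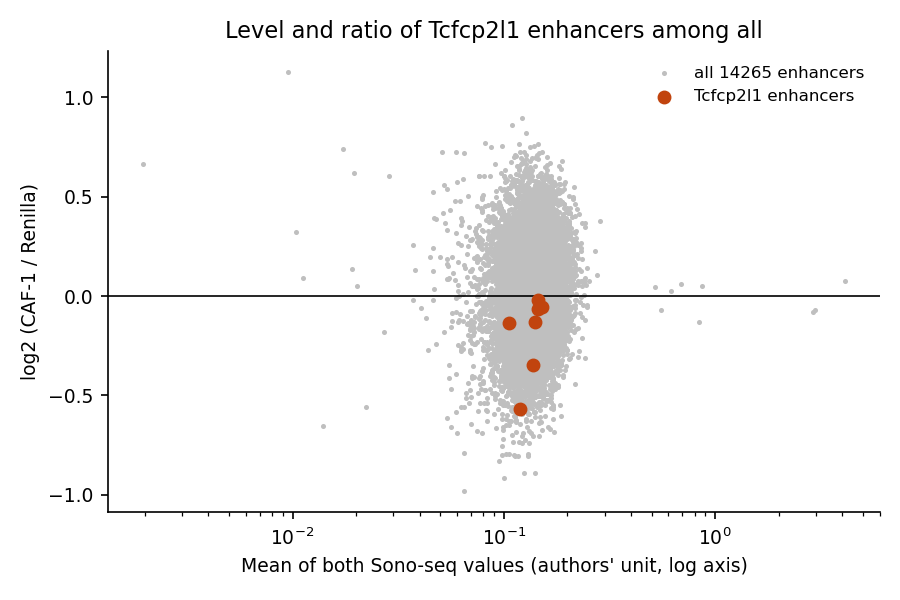
Each point is an enhancer, placed by the mean of its 2 Sono-seq values (authors' unit, log axis) and by its log2 ratio of CAF-1 over Renilla; grey points are all 14265 enhancers and red points those of Tcfcp2l1. The red points lie within the main cloud by level and all below 0, and the lowest, at -0.57, lies near the cloud's lower edge.

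In levels, the Tcfcp2l1 enhancers were ordinary regions of this table. In Renilla they ranged from 0.111 to 0.154 with a median of 0.146, against a median of 0.137 over all enhancers. With CAF-1 knockdown they ranged from 0.0964 to 0.148 with a median of 0.134, against 0.140 over all. The ranges overlap, and the medians stood above that of all enhancers in Renilla and below it in the knockdown. In Renilla, 6 of the 7 lay between 0.143 and 0.154, and with no spread between libraries their order cannot be told apart. With CAF-1 knockdown the coefficient of variation over the 7 enhancers was 16.5%, against 10.3% in Renilla. Over all enhancers of the series it was 40.4% and 40.3%. The gene was chosen by its ratios, and whether the spread differs between conditions was not tested.

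Set among the 194 genes with 7 enhancers, Tcfcp2l1 was the 1 gene whose enhancers were all lower with CAF-1 knockdown (0.515%). The choice of the gene rests on these ratios, so the count is given as a description. In 12 genes all enhancers but 1 were lower, and the median gene had 3 lower. In 4 genes all were higher (2.06%): Ccdc141 (mean log2 ratio 0.23), Pfdn1 (0.13), which encodes a prefoldin chaperone subunit, and the pair Fkbp4 and Gm10069, which share the same 7 enhancers (0.087). Of the 919 genes with 7 or more enhancers, 2 had all of them lower (0.218%), and the other was Ctnna1, the gene of alpha-catenin, with 9 enhancers and a mean of -0.15; it was singled out after its values were seen.

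**Figure D3:**
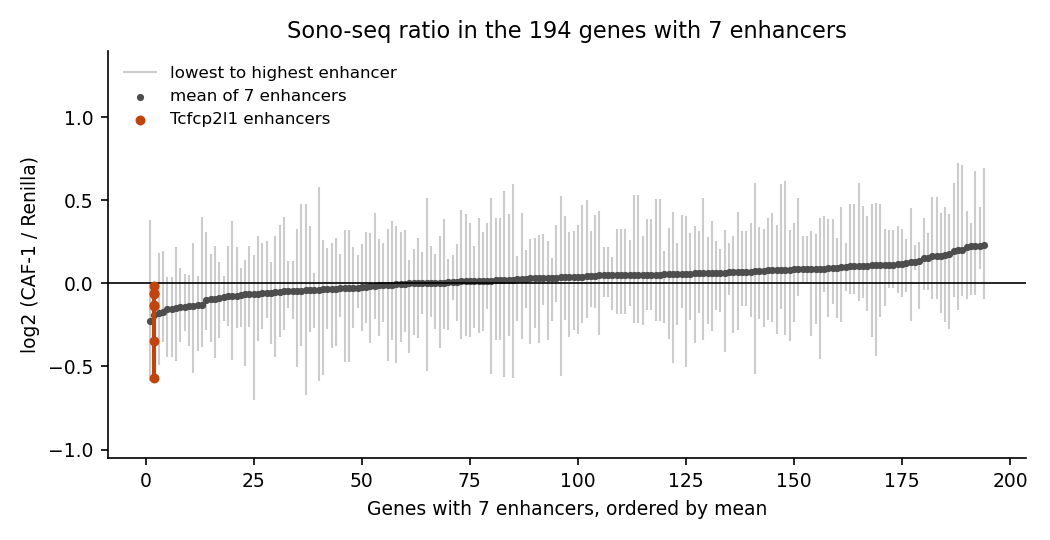
The 194 genes with 7 enhancers, ordered by mean log2 ratio of CAF-1 over Renilla; dots are means, grey lines run from the lowest to the highest enhancer, and red points are the Tcfcp2l1 enhancers. Tcfcp2l1 stands at rank 2, and its line alone ends below 0, at -0.019.

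By the mean log2 ratio Tcfcp2l1 ranked 2 of 194, counted from the lowest. Below it was Ubb, a polyubiquitin gene, at -0.23 ± 0.34 (SD over its enhancers), of which 6 were lower. Just above it came Atp13a1 (-0.18 ± 0.22), Plekhm1 (-0.17 ± 0.19) and the histone genes Hist1h3e and Hist1h4h, which share their enhancers (-0.15 ± 0.16). Each of these 4 had 6 lower enhancers. The gene means had a median of 0.037 with quartiles of -0.027 and 0.079, and 60 of the 194 were below 0. The distances between Tcfcp2l1 and its neighbours in rank are far smaller than the SD over enhancers within each gene.

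By the median in place of the mean, Tcfcp2l1 had -0.13 and ranked 14. Its SD over enhancers, 0.20, was ordinary, since 110 of the 194 genes had a larger one and the median was 0.22. By the promoter ratio it ranked 12 of the 194. The genes whose ordered enhancer ratios were closest to its own were Hist1h3e and Hist1h4h (root mean square difference of the 7 sorted log2 ratios 0.066 for each), Apobec1 (0.091), Adipor2 (0.096) and Atp13a1 (0.097). Their promoters did not follow that likeness: the log2 ratio was 0.50 at Hist1h4h, 0.31 at Adipor2, 0.11 at Apobec1, -0.051 at Hist1h3e and -0.088 at Atp13a1, against -0.36 at Tcfcp2l1.

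Within 500 kb of the start site the table lists 7 enhancers of 3 other genes, all upstream, of which 4 were lower with CAF-1 knockdown, against 44.7% of all enhancers. These 7 are too few to say whether the neighbours differ from the whole table. The nearest, 140621 bp upstream and assigned to the non-coding gene 2900060B14Rik, had 0.123 with CAF-1 knockdown and 0.148 with Renilla (log2 ratio -0.27). The other 3 enhancers of 2900060B14Rik had ratios of -0.25, 0.13 and -0.0099, so 3 of its 4 were lower. The promoter of 2900060B14Rik, 168679 bp upstream, had 0.185 and 0.177 (0.065). It was the only other start site within 200 kb. At Clasp1, which encodes a microtubule-binding protein, the promoter lay 238887 bp upstream and had 0.135 and 0.137 (-0.013). Downstream, the next listed start site was that of Inhbb, 794304 bp away. In RefSeq (GRCm38.p6) the protein-coding neighbours are Clasp1 upstream and Gli2, a transcription factor of Hedgehog signalling, downstream, and the table has no region under Gli2 within 500 kb.

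Sox2 positions were sparse around Tcfcp2l1. Within 200 kb of the start site the Renilla list held 1 position, the Chaf1a.166 list 1 and the Chaf1a.2122 list 3. The medians over all 5513 start sites were 4, 4 and 5. At least 1 position within 200 kb was found at 95.6% (Renilla), 95.3% (Chaf1a.166) and 96.7% (Chaf1a.2122) of start sites. As few positions or fewer were found at 14.5%, 15.2% and 34.6% of them. No list held a position within 500 bp of the promoter or of any of the 7 enhancers. Such a position was found at 3.20% (Renilla), 3.33% (Chaf1a.166) and 3.65% (Chaf1a.2122) of all enhancers and at 7.62%, 7.40% and 9.32% of promoters, so none among 8 regions is the usual case.

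The nearest Sox2 site was held by both knockdown lists and was missing from the Renilla list. It lay 62020 bp downstream of the start, at 120586541 (Chaf1a.166) and 120586544 (Chaf1a.2122), 3 bp apart. In the 1689 sites of this class over the genome, the positions were a median of 38 bp apart. The site is 791 bp (Chaf1a.166) and 794 bp (Chaf1a.2122) beyond the last Tcfcp2l1 enhancer, and 6491 bp and 6494 bp beyond the sixth. A position within 1000 bp was found at 5.37% (Chaf1a.166), 6.08% (Chaf1a.2122) and 5.46% (Renilla) of all enhancers. The last enhancer had a slightly lower Sono-seq value in the knockdown (log2 ratio -0.13), and the sixth had the largest drop (-0.57). The Sono-seq libraries titled CAF-1 are not the Sox2 libraries, so values of the 2 assays come from different samples.

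In control cells the nearest Sox2 position was 174333 bp upstream of the start, and 235562 bp from the last enhancer. A nearer Renilla position was found at 94.2% of start sites, where the median distance was 27650 bp. For the knockdown lists 72.4% (Chaf1a.166) and 76.8% (Chaf1a.2122) of start sites had a nearer one. A site of both knockdown lists and not Renilla lay within 1000 bp of 0.701% of enhancers, and within 200 kb of 37.7% of start sites.

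The shared knockdown site was not a strong one. In the Chaf1a.166 list its score was 16.1, close to the lowest of that list (14.8), at rank 14020 of 15888, with an enrichment over input of 7.23 (lower bound 1.80) and a false discovery rate of 0.000464. In the Chaf1a.2122 list it scored 18.8, near the list's median of 20.0, at rank 10646 of 19319, with an enrichment of 6.35 (lower bound 2.06) and a false discovery rate of 0.000235. Scores and enrichments are the authors' values, each to be read within its own list. The lowest score in the Renilla list was 13.3. A position missing from that list is one below its threshold, and the Renilla signal at this place was not analysed here.

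**Figure D4:**
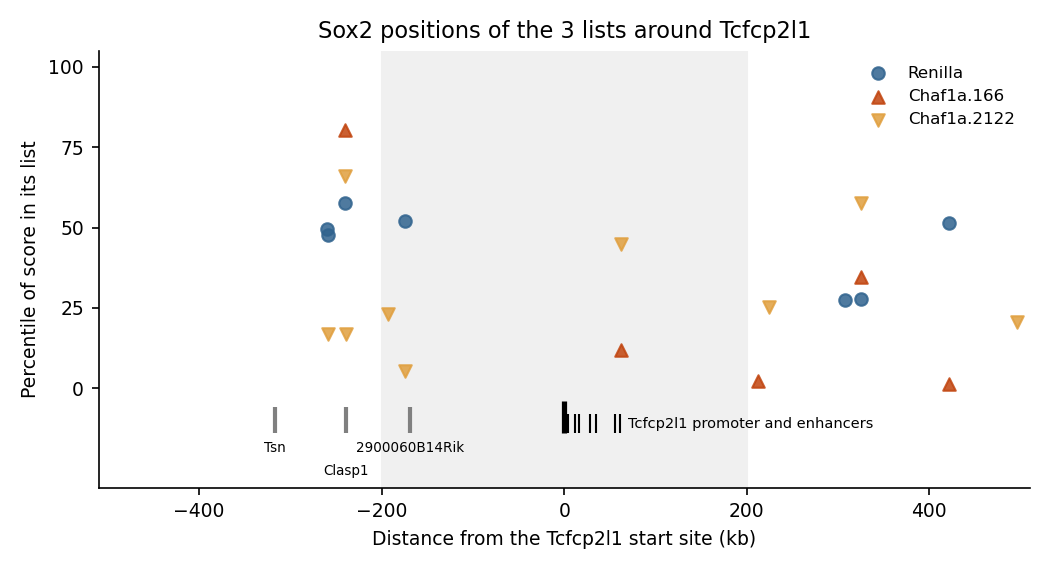
Sox2 positions of the Renilla, Chaf1a.166 and Chaf1a.2122 lists within 500 kb of the Tcfcp2l1 start site (horizontal axis, kb), each at the percentile of its score within its own list; black bars mark the Tcfcp2l1 promoter and enhancers, grey bars other start sites, and shading the 200 kb window. Between the start site and the last enhancer no list has a position, and the pair of knockdown positions just beyond it has percentiles 11.8 and 44.9.

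The other positions within 200 kb lay upstream. The Renilla position at 120350188 (score 22.3, rank 8480 of 17681, enrichment 4.74) had a Chaf1a.2122 position 97 bp away, at 120350285, which scored 12.9 and ranked 18306 of 19319. This site lies nearer to the start of 2900060B14Rik than to that of Tcfcp2l1. A further Chaf1a.2122 position stood alone at 120331900, 192621 bp upstream, with a score of 14.9. No site within 200 kb was held by all 3 lists, although 88.6% of start sites had such a site in that distance and 43.3% of the 25432 sites over the genome were of that class.

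The genes listed here under naive pluripotency had enhancer ratios on both sides of 0. Of the 20 genes put in this list, among them Pou5f1, Sox2 and Fgf4, 16 were in the table, and 12 of them had 3 or more enhancers. Esrrb, Nr0b1, Dppa3 and Prdm14 were not in the table, so the values below do not cover them. In 3 of these 12 the mean log2 ratio was below 0, and in none were all enhancers lower. As background, 60 of the 194 genes with 7 enhancers had a mean below 0, and 1, Tcfcp2l1, had all enhancers lower. That background is not matched, since the 12 genes have 3 to 17 enhancers and both counts depend on their number. Of the 115 enhancers of the list, 45 (39.1%) were lower with CAF-1 knockdown, near the 44.7% of all enhancers, and their median was 0.055. Among the genes with 3 or more enhancers, the lowest means were those of Nr5a2 (-0.17 ± 0.30 over 4 enhancers), a nuclear receptor gene, and Sall4 (-0.055 ± 0.26 over 15), a zinc finger gene. The highest in the same group were those of Fbxo15 (0.24 ± 0.20 over 3) and Tbx3 (0.19 ± 0.23 over 4), a T-box gene. Zfp42, a zinc finger gene with 1 enhancer, had -0.28 there, and Dppa5a had a mean of -0.090 over 2. Promoters were lower in 8 of the 16 genes, against 51.8% of all promoters. Sox2 itself has 7 enhancers too, of which 5 were lower, with a mean of -0.041 ± 0.24.

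Genes listed under the LIF and Stat3 pathway, of which Tcfcp2l1 is a target in ES cells, had enhancer ratios on both sides of 0. Gbx2 and Klf4 stand in this list and in the naive pluripotency list, so their enhancers are counted in both. All 12 listed genes were in the table, and 31 of their 81 enhancers (38.3%) were lower, near the 44.7% of all enhancers, with a median log2 ratio of 0.060. Among the 8 genes with 3 or more enhancers, 2 had a mean below 0, against 60 of the 194 genes with 7 enhancers. The 8 genes have 4 to 20 enhancers, so that background is not matched in number. These 2 were Stat3, the transcription factor of the pathway (-0.071 ± 0.19 over 5), and Pim1, a kinase gene (-0.0063 ± 0.23 over 20). The highest means among these 8 were those of Pim3, also a kinase gene (0.24 ± 0.26 over 4), and Lifr, the LIF receptor gene (0.17 ± 0.084 over 6, none lower). Of the 12 promoters 5 were lower, against 51.8% of all promoters. The median log2 ratio of the 12 was 0.062, against -0.0093 over all promoters. The lowest of the 12 were those of Jak1, a kinase gene of the pathway (-0.29), Pim3 (-0.27) and Junb, a transcription factor gene (-0.23). The highest were those of Stat3 and Socs3. The promoter of Stat3 had 0.189 with CAF-1 knockdown and 0.145 with Renilla (log2 ratio 0.38). That of Socs3, a feedback inhibitor of the pathway with 7 enhancers, had 0.204 and 0.157 (0.38). All 3 lists held a Sox2 position near the Stat3 start site, 214 bp (Renilla), 248 bp (Chaf1a.166) and 196 bp (Chaf1a.2122) away. A position within 500 bp was found at 7.62%, 7.40% and 9.32% of all promoters. At Socs3 the distances were 155 bp, 6263 bp and 57 bp, in the same order. At every other gene of this list the nearest position was over 1000 bp away. Whether Sox2 positions go with promoter ratios was not tested.

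In the CP2 and grainyhead family, 3 relatives were in the table. Their 27 enhancers, most of them of Grhl3, had a median log2 ratio of 0.037. Of these enhancers 11 (40.7%) were lower, near the 44.7% of all enhancers. Tcfcp2, the nearest relative among them, had 2 enhancers, neither lower, and a promoter ratio of -0.081. Grhl1 had 2 enhancers with a mean of 0.19 and a promoter ratio of -0.17. Grhl3 had 23 enhancers with a mean of 0.034 ± 0.22 and a promoter ratio of 0.20.

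**Figure D5:**
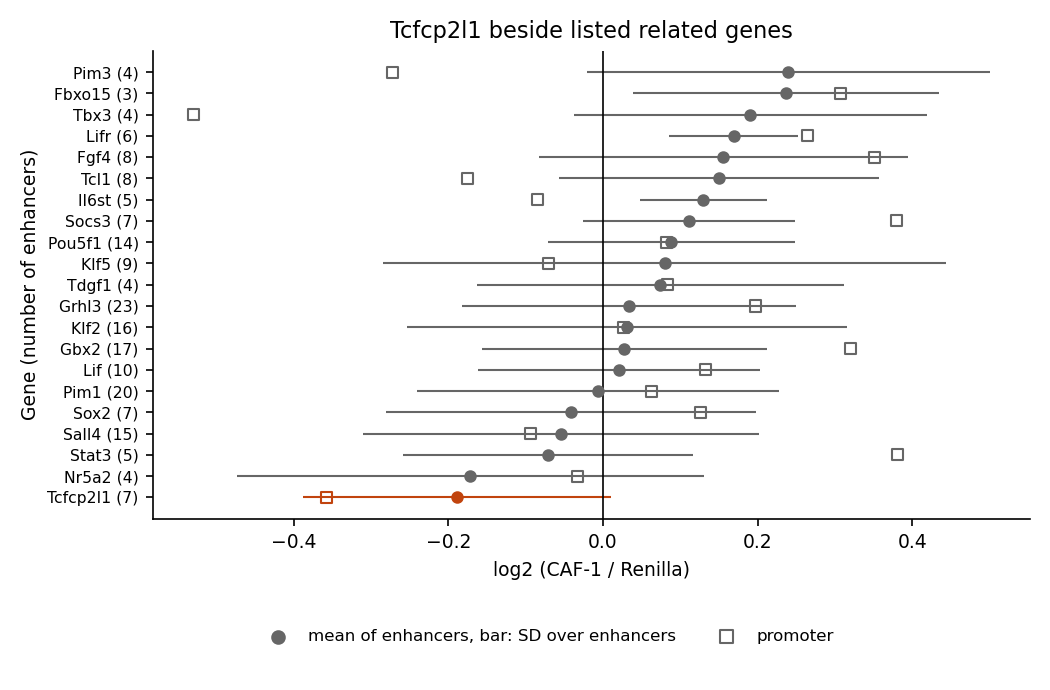
Mean log2 ratio of CAF-1 over Renilla over the enhancers of each listed related gene with 3 or more enhancers (filled circles, bars are the SD over enhancers) and the log2 ratio of its promoter (open squares); the number of enhancers is in brackets and Tcfcp2l1 is red. Tcfcp2l1, which was chosen by its enhancer ratios, has the lowest enhancer mean of the 21 genes shown, at -0.19. The promoter of Tbx3, at -0.53, lies below that of Tcfcp2l1, at -0.36. Not shown for having fewer enhancers are Zfp42, whose 1 enhancer had -0.28, and Dppa5a, whose promoter had -0.38.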

How the data were processed

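The members and lists were chosen with earlier results of these data known. Of 61 samples, 6 Sono-seq and 6 Sox2 ChIP-seq libraries enter the files used; the other 49 were not analysed here. Per the submitters' processing notes, the build was mm9, with BWA 0.7.8 and Bowtie among the tools but no word on what each did; no source used here names the caller of the Sox2 positions. The authors deposited, per the file headers, 1 Sono-seq value per region and condition, treated as a score of unknown unit, and for each Sox2 position a score, an E-value (also a score), a false discovery rate (q-value) and an enrichment ratio with its lower bound. Per the file headers, the ES cell regions come from a published set.

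Computed here (Python 3.11.15, pandas 2.3.3): distinct regions were taken by position, and 136 symbols that had become dates were restored through the RefSeq transcript. The log2 ratio used no pseudocount. Sox2 positions were joined within 200 bp; a position within 500 bp counted as at a region. Percentiles give the percent of regions below a value. Named genes were fixed by rule: genes sharing an enhancer with Tcfcp2l1 or starting within 200 kb, genes with as many enhancers that were all on the same side, neighbours in rank and likeness, and the 2 highest and lowest of each list. Clasp1, Inhbb, Gli2, Tsn, Sox2, Pou5f1, Fgf4, Socs3, Jak1, Junb, Zfp42, Dppa5a, the listed genes absent from the table and the Tcfcp2l1 relatives were added. Functions were tested on simulated data.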

Additional observations from a re-analysis of the deposited data

How the results depend on the processing

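No paired analysis was possible because neither assay has values per library, and single Sono-seq libraries could not be left out. The mean ratio of the Tcfcp2l1 enhancers ranged from -0.22 to -0.11 over 15 alternatives, and that of the promoter from -0.38 to -0.20 over 5. The gene was chosen with all its enhancers below 0, which fixes the sign under nearly all of these settings, so the sign is no evidence of stability. Leaving out 1 enhancer in turn gave -0.22 to -0.13, the latter without the sixth, a move of over 1.5 times. Scaling to the same median over all regions moved every log2 ratio by -0.019 and left all 7 enhancers lower. The rank was 14 of 194 by the median and 8 of 549 among genes with 6 to 8 enhancers. In that wider group 5 genes had all enhancers lower, the others being Hist1h3b, Ier5, Myst3 and Saps3 with 6 each (named after their values were seen), and 11 had all higher; after scaling, 2 of the 194 had all higher.

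Counts of Sox2 positions follow the window by construction. Within 50 kb they were 0 in each list. Within 100 kb they were 0 (Renilla), 1 (Chaf1a.166) and 1 (Chaf1a.2122), and within 500 kb 7, 5 and 9. Of positions whose enrichment lower bound reached 2, Renilla and Chaf1a.166 held 0 within 200 kb and Chaf1a.2122 held 2. The lists differ in length. With each cut to its 15888 best scored positions, the counts within 200 kb were 1 (Renilla), 1 (Chaf1a.166) and 2 (Chaf1a.2122). Counted within 1000 or 5000 bp, 1 region had a position in each knockdown list and 0 in Renilla. Within 200 kb, no other joining distance or enrichment bound gave a site of all 3 lists; within 500 kb there were 2. Unknown depth limits every statement on a missing position.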

Other observations

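Beyond the 200 kb window, Sox2 sites held by all 3 lists flanked the Tcfcp2l1 locus on both sides. Upstream, close to the start of Clasp1, the distance from the Tcfcp2l1 start was 239694 bp in Renilla, 239697 bp in Chaf1a.166 and 239666 bp in Chaf1a.2122. In the Chaf1a.166 list that position scored 41.5, at rank 3104 of 15888, the highest percentile (80.5) among the positions within 500 kb. Downstream, positions lay at 325283 bp (Renilla), 325229 bp (Chaf1a.166) and 325269 bp (Chaf1a.2122). Enrichment over input at this downstream site was low within each list. It was 4.42 (lower bound 1.54) in Renilla, 2.39 (0.895) in Chaf1a.166 and 3.07 (1.01) in Chaf1a.2122. How many start sites are flanked in this way was not counted, and 88.6% had a site of all 3 lists within 200 kb. A site of Renilla and Chaf1a.166 lay 421298 and 421280 bp downstream, with scores of 22.1 and 14.9. Within 500 kb the promoter of Tsn, an RNA-binding protein gene, had the highest Sono-seq ratio of CAF-1 over Renilla, 0.147 against 0.106 (log2 ratio 0.47).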
